A study of Mus musculus with 6 samples.

Results

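The 44 genes described here encode the machinery of mitosis and cytokinesis, from the cyclins that start division to the proteins that cut the cell apart. They were taken by symbol from a list of such genes, each symbol matched 1 row of the files, and together they are 44 of 49671 genes. RNA-Seq was performed on muscle stem cells (MuSCs), the resident stem cells of skeletal muscle, from female C57BL/6 mice aged 4 to 6 months. Both tibialis anterior (TA) muscles of every mouse were injured with 50 μL of 1.2% BaCl2, a salt that destroys myofibers, and were collected at day 3 after injury. Resolvin D1 (RvD1), a lipid mediator that promotes the resolution of inflammation, was given to 3 mice by daily IP injection of 100 ng, and 3 mice received vehicle (0.1% ethanol). The 2 TA muscles of a mouse were pooled, MuSCs were sorted as cells that carried β1-integrin and CXCR4 and lacked CD45, CD11b, Ter119, and Sca-1 (and CD31, according to the sample labels), and each mouse gave 1 library. No uninjured mice were analysed here, and the whole series rests on these 6 libraries.

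Quiescent MuSCs are activated by injury and divide as myoblasts before they fuse into new myofibers, so dividing cells are a normal part of muscle at this stage. A cell enters mitosis when cyclin B activates Cdk1, builds a spindle of microtubules whose ends attach to kinetochores on the chromosomes, and waits at the spindle checkpoint until every chromosome is attached. The anaphase-promoting complex then marks securin and cyclin B for destruction, the chromosomes part, and the cell is divided at the spindle midzone. Transcripts of these genes are made mainly in G2 and mitosis and are held down in resting cells by the DREAM complex, which contacts promoters through the CHR (cell cycle genes homology region) element, while the factor NF-Y binds nearby CCAAT boxes.

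Libraries held between 16148026 and 28149176 expected counts, and a level of 3 counts corresponded to 0.107 to 0.186 CPM (counts scaled to library size), a floor for counting error only. Of the genes of the gate, Itgb1 was at 443.8 to 524.0 TPM (transcript abundance per length, scaled to a fixed total) and Cxcr4 at 11.7 to 29.8 TPM, while Ly6a (Sca-1), which the gate selects against, was at 17.2 to 39.7 TPM. Stem cell markers (12 genes) summed to 2420 to 2753 TPM with RvD1 and 2202 to 2573 TPM with vehicle. Among them, Myod1 was at 238.9 to 470.0 TPM, Cdh15 at 300.3 to 422.7 TPM, Pax7 at 4.03 to 8.5 TPM, and Chrdl2 at 0.2 to 1.62 TPM. Muscle differentiation genes (13 genes) summed to 2415 to 3904 TPM with RvD1 and 2703 to 3162 TPM with vehicle. Of these, Myog was at 818.1 to 1378 TPM. Leukocyte markers (20 genes) summed to 46.4 to 68.3 TPM with RvD1 and 58.1 to 99.6 TPM with vehicle. Lyz2 was at 17.6 to 34.2 TPM with RvD1 and 27.6 to 61.1 TPM with vehicle. Cd68 was at 4.87 to 11 TPM over all libraries, and Ly6g and S100a9 were listed at 0 in every library. Endothelial markers (10 genes) summed to 17.8 to 25 TPM with RvD1 and 10.9 to 32.6 TPM with vehicle. Fibro-adipogenic markers (10 genes) summed to 970.4 to 2278 TPM with RvD1 and 1110 to 1225 TPM with vehicle, the highest sum being that of RvD1 replicate 1. Erythroid markers (6 genes) summed to 11.4 to 95.6 TPM with RvD1 and 32 to 79.3 TPM with vehicle.

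Promoter windows of the RefSeq annotation (GRCm38.p6), from 250 bases before to 50 bases after the gene start, were available for 37 of the 44 genes in 39 windows. They were searched on both strands for the CHR element, spelled TTTGAA or in its variant form TTCGAA, and for the CCAAT box. E2F cores were searched as TTGGCGC, as the form with TTCCCGC, and also as the form with TTCGCGC, the first of which can share bases with a CCAAT box on the reverse strand. A CHR element was found in 30 of the 39 windows (76.9%), against 19.2% of all 32851 windows. A CCAAT box was found in 29 (74.4%, against 37.4%), and both lay in 27 (69.2%, against 7.52%). E2F cores were found in 6 windows (15.4%, against 8.07%). In 69 windows of other mitosis genes, 60.9% held a CHR element, 65.2% a CCAAT box, 42% both, and 27.5% an E2F core. In 48 windows of S-phase genes, 16.7% held a CHR element, 58.3% a CCAAT box, 12.5% both, and 56.2% an E2F core. These shares describe letters in a window, and binding was not measured.

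To show both motifs in place, 3 promoters are printed, chosen only among windows that held a CHR element and a CCAAT box. Each is of the gene with the highest mean TPM in its role (mitotic entry, anaphase, and midzone). Birc5, the most abundant passenger complex gene (271.6 TPM), held neither motif in its window and was not eligible. CHR elements and CCAAT boxes of either strand are in capitals, and each promoter is read 5′ to 3′ in the direction of its gene. Cdk1 lies at chr10:69352863-69353162 (minus strand), Ube2c at chr2:164769679-164769978 (plus strand), and Prc1 at chr7:80294201-80294500 (plus strand).
Cdk1: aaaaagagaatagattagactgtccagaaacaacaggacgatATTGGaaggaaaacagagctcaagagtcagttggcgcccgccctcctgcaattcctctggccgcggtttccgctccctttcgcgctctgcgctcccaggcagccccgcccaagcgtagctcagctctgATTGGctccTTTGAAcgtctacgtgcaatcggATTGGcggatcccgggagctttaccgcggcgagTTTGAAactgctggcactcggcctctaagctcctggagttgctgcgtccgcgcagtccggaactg
Ube2c: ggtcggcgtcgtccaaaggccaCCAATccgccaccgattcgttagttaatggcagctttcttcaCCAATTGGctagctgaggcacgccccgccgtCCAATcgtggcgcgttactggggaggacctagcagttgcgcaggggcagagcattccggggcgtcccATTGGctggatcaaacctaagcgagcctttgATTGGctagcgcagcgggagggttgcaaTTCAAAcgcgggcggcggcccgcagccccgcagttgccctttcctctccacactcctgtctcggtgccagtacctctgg
Prc1: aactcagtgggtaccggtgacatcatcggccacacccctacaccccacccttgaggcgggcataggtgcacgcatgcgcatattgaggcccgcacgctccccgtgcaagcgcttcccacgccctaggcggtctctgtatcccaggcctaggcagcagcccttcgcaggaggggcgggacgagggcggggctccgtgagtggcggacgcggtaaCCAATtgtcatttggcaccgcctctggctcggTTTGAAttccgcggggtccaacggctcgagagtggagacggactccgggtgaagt
In the Cdk1 window the CHR elements began 71 and 15 bases before the start, and reverse CCAAT boxes lay at 208, 80, and 48 bases before it. Ube2c held 1 CHR element on the reverse strand, 29 bases before the start, and 6 CCAAT boxes farther upstream. The Prc1 window held 1 of each, a CCAAT box 37 bases and a CHR element 5 bases before the start. Where a gene had more than 1 window these could share bases, so that a match could count more than once. Over all windows, 47 of 68 CCAAT matches and 10 of 40 CHR matches began within the 100 bases before the start. Counted from 50 bases before the start into the transcript, there were 23 of 68 CCAAT matches and 29 of 40 CHR matches.

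**Figure D1:**
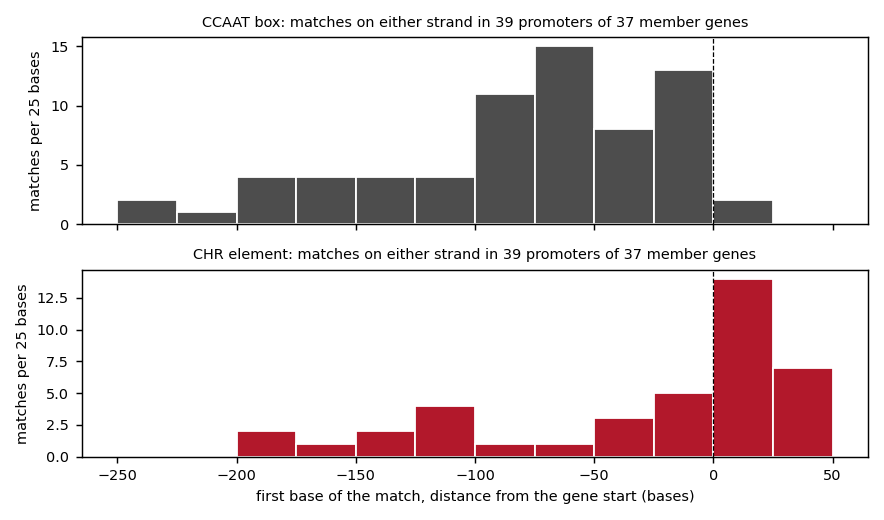
Number of CCAAT box and CHR element matches in bins of 25 bases (y axis) by the distance of their first base from the gene start (x axis, bases), in 39 promoter windows of 37 genes. CCAAT matches gather in the 100 bases before the start (47 of 68), and CHR matches gather close to the start and after it.

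All 44 genes were expressed in every library, with at least 395 expected counts in each. Mean TPM over the 6 libraries ranged from 15 for Cenpe to 368.2 for Cdk1, with a median of 71.2 TPM, which is higher than the mean TPM of 81.7% of the 14494 genes tested. A mean above 100 TPM was found for 17 genes and one under 30 TPM for 8. In the order of mean TPM, no 2 neighbouring genes had separate ranges over the 6 libraries (0 of 43 neighbouring pairs), so the order is firm only between genes that lie far apart. The summed level was 3721, 4572, and 5315 TPM with RvD1 (series of 3 values follow the order of replicates) and 4630, 4484, and 4915 TPM with vehicle. As a share of all expected counts, these genes made up 0.479%, 0.598%, and 0.672% with RvD1 and 0.596%, 0.586%, and 0.643% with vehicle. The vehicle libraries therefore lay between the lowest and the highest RvD1 library in both measures. In bulk RNA, fewer dividing cells and less RNA per dividing cell cannot be told apart.

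**Figure D2:**
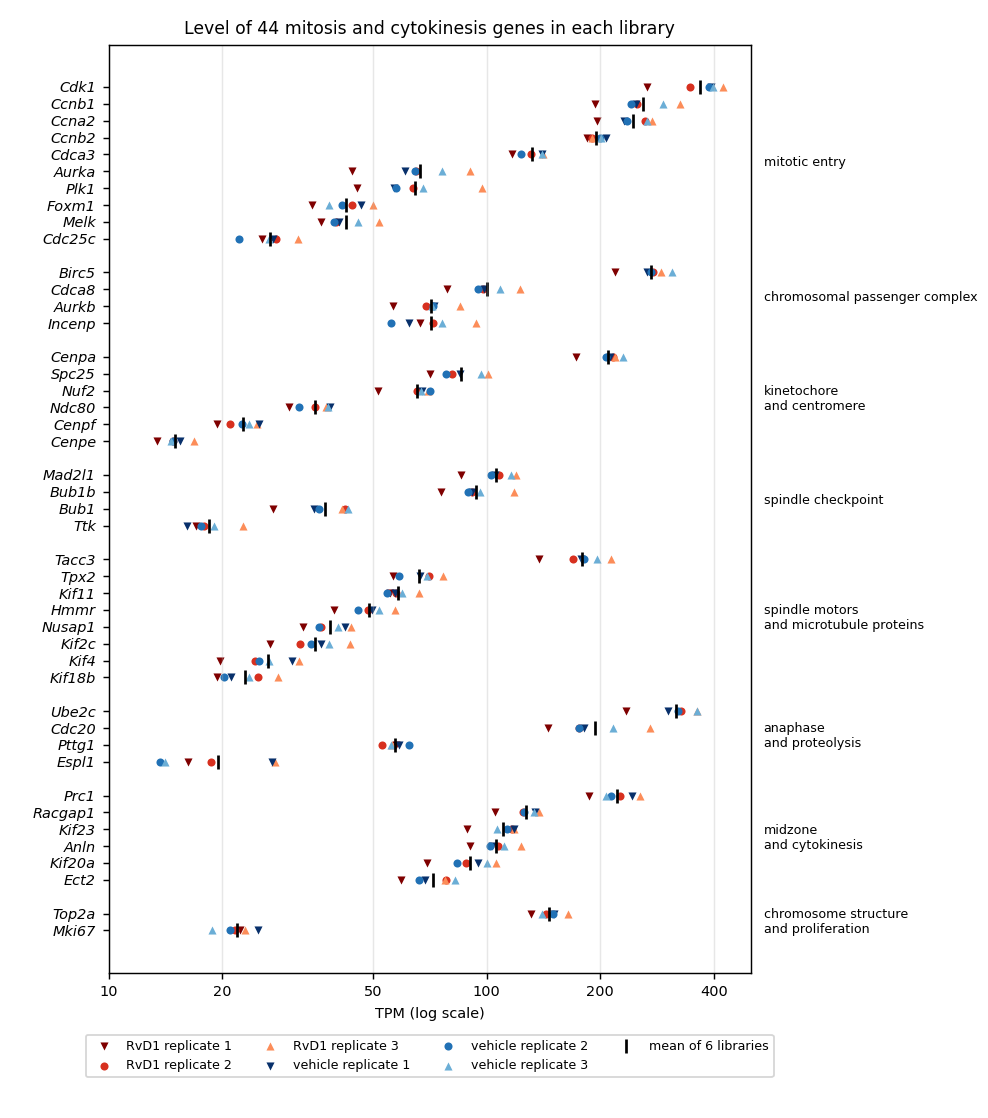
TPM (x axis, log scale) of 44 mitosis and cytokinesis genes (y axis, grouped by role), with 1 point for each of 3 RvD1 and 3 vehicle libraries and a bar for the mean of 6. Levels run from 15 TPM (Cenpe) to 368.2 TPM (Cdk1), and RvD1 replicate 1 is the leftmost point for most genes.

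RvD1 and vehicle were compared across all 14494 genes with edgeR's quasi-likelihood test, in which all 44 genes had enough counts to be tested. None of the 44 had a Benjamini-Hochberg adjusted p under 0.05 (0% of all genes tested passed), and their adjusted p ranged from 0.971 to 0.999. At an unadjusted p under 0.05, 1 gene was lower with RvD1 (Ccnb2, background 1.64% of all genes) and 0 were higher (background 1.83%). DESeq2 gave 0 members at an adjusted p under 0.05 and 1 at an unadjusted p under 0.05 (background 3.27%). The limma-voom procedure of the study was also run, over 26518 genes and with 1 surrogate variable removed. The study states neither the number of these variables nor a filter, so both were set here. This procedure likewise gave 0 members at an adjusted p under 0.05. At an unadjusted p under 0.05 it gave 1 lower (Ccnb2, background 5.32% of the 26518 genes) and 0 higher (background 5.89%). Log2 fold changes (RvD1 over vehicle) ranged from −0.23 to 0.17, with standard errors of 0.08 to 0.24. Their median was −0.09, beside 0.01 for all genes tested, and it was −0.03 with the procedure of the study and −0.05 with TPM. A value below 0 was found for 36 of the 44 genes (46.5% of all genes) and above 0 for 8 (53.5%). The 95% confidence interval held 0 for 43 genes, stayed within a log2 change of 0.5 in both directions for 34, and stayed within a log2 change of 1 for all 44. The 2 groups did not overlap for 2 genes that were lower with RvD1, Ccnb2 and Cdca3 (background 4.83%), and for 0 that were higher (background 4.8%).

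**Figure D3:**
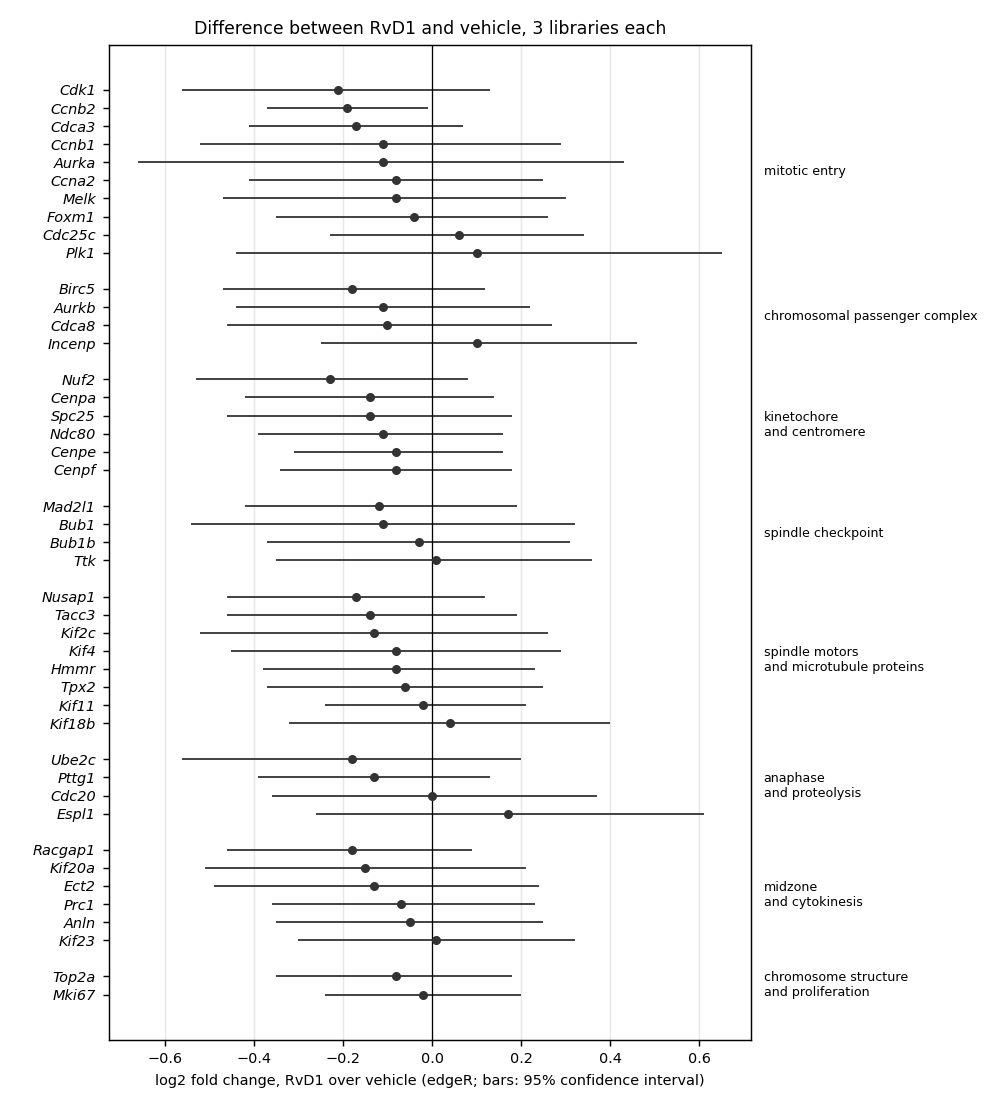
Log2 fold change of RvD1 over vehicle (x axis; points, edgeR estimates; bars, 95% confidence intervals; 3 libraries in each group) for 44 genes grouped by role (y axis). Estimates lie between −0.23 and 0.17, and the intervals of 43 genes cross 0.

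The signs depended on single RvD1 libraries. Without RvD1 replicate 1, 31 of the 44 genes had a log2 fold change above 0 and the median was 0.04, with 1 gene higher at an unadjusted p under 0.05 (Espl1, background 2.04%) and 0 at an adjusted p under 0.05. Without RvD1 replicate 3, all 44 were below 0 and the median was −0.20, with 3 genes at an unadjusted p under 0.05 (Nuf2, Nusap1, and Tacc3, background 1.9%) and 0 at an adjusted p under 0.05 (background 0.00672%). Groups that did not overlap were then counted again, a check chosen after seeing the data. Without RvD1 replicate 1, they were found for 3 genes lower (background 9.58%) and 4 higher (background 10.4%) with RvD1, and without RvD1 replicate 3 for 14 lower (background 10.3%) and 0 higher (background 10.5%).

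Levels of most of these genes varied among the RvD1-treated mice, and those of Ccnb2 and Pttg1 varied little (SD of log2 CPM 0.06 each). In RvD1 replicate 1, 41 of the 44 genes had their lowest level of all 6 libraries (93.2%), where 29.5% of all genes tested did, and the same number lay below every vehicle library (35% of all genes). In TPM it was 37 of the 44 (20.5% of all genes), since Incenp, Ttk, Kif11, and Espl1 were lower in a vehicle library on that scale. In RvD1 replicate 3, 26 genes had their highest level (18.9% of all genes) and 26 lay above every vehicle library (29.4%). RvD1 replicate 2 lay closer to vehicle, with 15 genes below every vehicle library (23.5%) and 4 above (23.5%). The median of the 44 genes, as log2 CPM relative to the vehicle mean, was −0.39, −0.04, and 0.12 with RvD1 and −0.05, −0.05, and 0.09 with vehicle. The SD of log2 CPM within a group had a median of 0.28 with RvD1 and 0.11 with vehicle, beside 0.23 and 0.14 for all genes tested. It was larger with RvD1 for 42 of the 44 genes and for 69.6% of all genes. Mki67 (0.03 with RvD1, 0.15 with vehicle) and Pttg1 (0.06 and 0.11) were the exceptions.

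**Figure D4:**
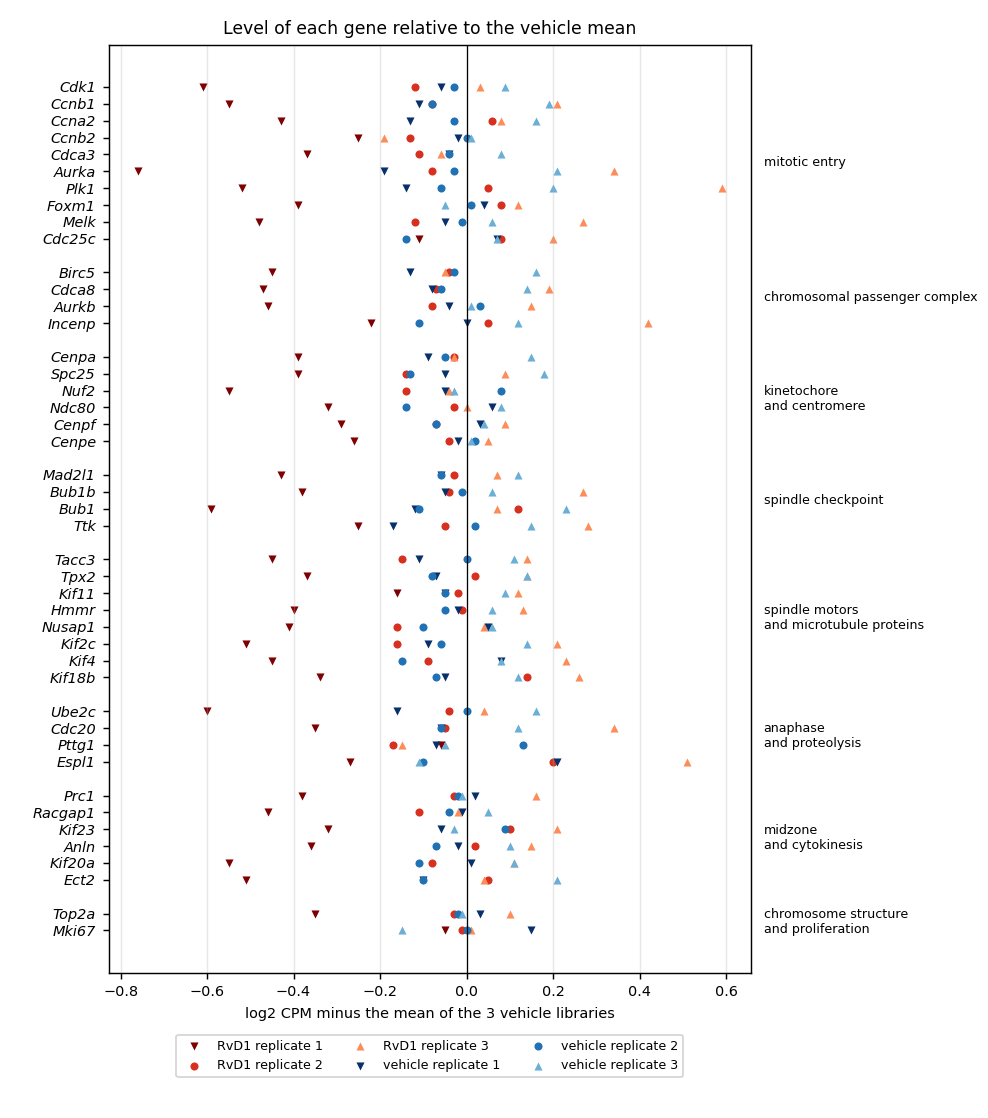
Level of each gene (y axis, grouped by role) in each of 6 libraries as log2 CPM minus the mean of the 3 vehicle libraries (x axis). RvD1 replicate 1 stands to the left for 41 of 44 genes and RvD1 replicate 3 is the rightmost point for 26, with vehicle libraries and RvD1 replicate 2 between them.

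The size of this spread was not the same for all genes. CPM in RvD1 replicate 3 was 1.44-fold that in RvD1 replicate 1 for the median member, beside 0.993-fold for all genes tested, with a range from 0.942 (Pttg1) to 2.16 (Plk1). It exceeded 1.5-fold for 18 of the 44 genes and for 8.73% of all genes. The kinases Plk1 (2.16-fold) and Aurka (2.14-fold), which drive entry into mitosis and the maturation of the spindle poles, had the widest spread. Espl1 (1.71-fold), Ccnb1 (1.69-fold), and Melk (1.68-fold) followed. At the other end stood Mki67 (1.05-fold), Ccnb2 (1.04-fold), and Pttg1. By role, the median was between 1.45-fold and 1.59-fold for mitotic entry, passenger complex, checkpoint, spindle, anaphase, and midzone genes. For kinetochore and centromere genes it was 1.29-fold, and for the 2 genes of chromosome structure and proliferation (Top2a and Mki67) 1.21-fold. The values are given below from the start of mitosis to its end.

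Mitotic entry was represented by 10 genes, with log2 fold changes from −0.21 to 0.10, 8 of them below 0. Cdk1, the kinase that triggers mitosis, was at 266.4, 345.2, and 421.4 TPM with RvD1 and at 392.0, 387.1, and 397.4 TPM with vehicle. RvD1 replicate 1 was low, and RvD1 replicate 3 was above every vehicle library in TPM but not in CPM (230.0, beside 240.6 in vehicle replicate 3). The log2 fold change of Cdk1 was −0.21 (standard error 0.15, 95% interval −0.56 to 0.13), −0.35 without RvD1 replicate 3, and −0.05 without RvD1 replicate 1. Ccnb1, the main cyclin partner of Cdk1, was at 194.1, 250.1, and 325.3 TPM with RvD1 and 248.9, 241.7, and 293.3 TPM with vehicle, again with the vehicle libraries inside the RvD1 range (log2 fold change −0.11, standard error 0.18). Ccna2, the cyclin of S phase and G2, showed the same order of RvD1 libraries, at 196.2, 263.3, and 274.8 TPM, beside 230.8 to 265.9 TPM with vehicle, but its highest CPM was in vehicle replicate 3.

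The second B-type cyclin, Ccnb2, behaved otherwise. It was at 184.5, 190.0, and 189.7 TPM with RvD1 and 207.0, 200.2, and 200.6 TPM with vehicle, so that the groups were narrow and did not overlap. Its log2 fold change was −0.19 (standard error 0.08, 95% interval −0.37 to −0.01, edgeR unadjusted p = 0.0443, adjusted p = 0.971). A pseudogene, Ccnb2-ps, held between 3.33 and 9 expected counts in a library and so took few reads beside the mean of 3521 counts of Ccnb2. Cdca3, which helps to remove the mitotic inhibitor Wee1, was at 85.7, 102.9, and 106.6 CPM with RvD1 and 108.2, 107.7, and 117.0 CPM with vehicle. Its groups did not overlap in CPM but did in TPM (116.5 to 140.7 and 123.7 to 140.4), and its log2 fold change was −0.17 (standard error 0.11, unadjusted p = 0.137, adjusted p = 0.971).

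Aurka, the kinase of the spindle poles, was at 44, 65.1, and 90.3 TPM with RvD1 and 60.8, 64.7, and 76.2 TPM with vehicle, the widest spread over the 6 libraries of any member (SD 0.38 on the log2 scale). Plk1, a kinase with targets throughout mitosis, was at 45.4, 63.7, and 97.4 TPM with RvD1 and 56.8, 57.7, and 67.9 TPM with vehicle. For both, RvD1 replicates 1 and 3 lay on opposite sides of all vehicle libraries. The intervals of the difference, −0.66 to 0.43 for Aurka and −0.44 to 0.65 for Plk1, were the widest of the 44. Cdc25c, a phosphatase that activates Cdk1, was at 25.5 to 31.7 TPM with RvD1 and 22.1 to 27.2 TPM with vehicle, and was one of the 3 members without their lowest CPM in RvD1 replicate 1. Foxm1, a transcription factor for G2 and mitosis genes, had 34.6 to 50 TPM with RvD1 and 38.2 to 46.4 TPM with vehicle, and Melk, a kinase, 36.5 to 51.9 TPM and 39.5 to 45.8 TPM.

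The chromosomal passenger complex, which corrects faulty attachments and later guides cytokinesis, is made of Aurkb, Incenp, Birc5 (survivin), and Cdca8 (borealin). Birc5 was the most abundant, at 218.1, 275.6, and 289.1 TPM with RvD1 and 265.3, 272.0, and 309.2 TPM with vehicle (log2 fold change −0.18, standard error 0.13). Cdca8 was at 78.4, 97.8, and 122.3 TPM with RvD1 and 98.6, 94.7, and 108.7 TPM with vehicle. Aurkb, the kinase of the complex, was nearly constant with vehicle (71.8 to 72.8 TPM) and ranged from 56.4 to 84.9 TPM with RvD1. All 4 subunits were lowest in CPM in RvD1 replicate 1, and the groups overlapped for each. Incenp, the scaffold, was the subunit with a log2 fold change above 0 (0.10, standard error 0.16), at 66.6, 72.3, and 93.8 TPM with RvD1 and 62.3, 55.7, and 76.4 TPM with vehicle.

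Kinetochore and centromere genes (6) all had log2 fold changes below 0, from −0.23 to −0.08, with 6 of 6 lowest in RvD1 replicate 1. Nuf2, a subunit of the Ndc80 complex that grips microtubules, had the lowest value of the 44 genes in edgeR with all 6 libraries. Leaving out RvD1 replicate 1 gave −0.09 for it, and leaving out RvD1 replicate 3 gave −0.33, when Aurka (−0.39) and Cdk1 (−0.35) were lower. Nuf2 was at 51.7, 65.3, and 69.8 TPM with RvD1 and 67.5, 71, and 66.9 TPM with vehicle (log2 fold change −0.23, standard error 0.13, 95% interval −0.53 to 0.08, edgeR unadjusted p = 0.124). The other Ndc80 complex members were closer to 0, with −0.11 (standard error 0.12) for Ndc80 and −0.14 (standard error 0.14) for Spc25. Spc25 was at 71.0, 80.8, and 100.9 TPM with RvD1 and 85.3, 78.2, and 96.6 TPM with vehicle. Cenpa, the histone variant that marks centromeres, was at 172.3, 215.8, and 218.7 TPM with RvD1 and 211.6, 207.0, and 229.7 TPM with vehicle. The large coiled-coil proteins Cenpe, a kinesin of the kinetochore, and Cenpf had low levels and narrow ranges, 13.4 to 16.8 TPM with RvD1 and 14.6 to 15.4 TPM with vehicle for Cenpe and 19.4 to 25 TPM over all libraries for Cenpf.

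The spindle checkpoint was represented by Mad2l1 and Bub1b, parts of the inhibitor of the anaphase-promoting complex, and by the kinases Bub1 and Ttk. Mad2l1 was at 85.7, 108.0, and 119.7 TPM with RvD1 and 105.4, 102.6, and 116.1 TPM with vehicle (log2 fold change −0.12, standard error 0.14). Bub1b was at 75.6, 91.7, and 118.4 TPM with RvD1 and 91.8, 89.2, and 96.3 TPM with vehicle (−0.03, standard error 0.15). For both, the RvD1 range enclosed that of vehicle in TPM, and for Mad2l1 vehicle replicate 3 was the highest in CPM. Bub1 was lowest in RvD1 replicate 1 (27.2 TPM) and at 34.9 to 42.9 TPM elsewhere, whereas Ttk was at 17 to 22.7 TPM with RvD1 and 16.1 to 19 TPM with vehicle (log2 fold change 0.01, standard error 0.16).

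Among 8 genes for spindle motors and microtubule proteins, all were lowest in CPM in RvD1 replicate 1 and 7 had log2 fold changes below 0. Tacc3, which stabilizes spindle fibers, was at 137.9, 169.5, and 213.3 TPM with RvD1 and 177.4, 181.6, and 196.3 TPM with vehicle (log2 fold change −0.14, standard error 0.14). Tpx2, an activator of Aurka on the spindle, was at 56.5, 70.6, and 76.7 TPM with RvD1 and 66.8, 58.6, and 69.4 TPM with vehicle (−0.06, standard error 0.14). The RvD1 libraries of both genes lay on either side of vehicle in TPM, and in CPM the highest library of Tpx2 was vehicle replicate 3. Kif11, the motor that pushes the spindle poles apart, varied little, from 54.5 to 66.2 TPM over all libraries. Kif2c and Kif18b, motors that act on microtubule ends, Kif4, a motor of chromosome arms, and Nusap1 and Hmmr, which bind microtubules, had means of 22.9 to 48.8 TPM and log2 fold changes of −0.17 to 0.04.

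Of the genes of anaphase, Ube2c, the ubiquitin-conjugating enzyme of the anaphase-promoting complex, was at 233.7, 327.1, and 360.4 TPM with RvD1 and 302.4, 321.9, and 360.9 TPM with vehicle (log2 fold change −0.18, standard error 0.17). Its locus overlaps the muscle gene Tnnc2 on the opposite strand, and reads of the 2 may not be separable where strand was not used. Cdc20, the activator of that complex, was at 145.0, 175.6, and 271.3 TPM with RvD1 and 180.8, 176.1, and 215.9 TPM with vehicle, and its log2 fold change rounded to 0 (standard error 0.16, 95% interval −0.36 to 0.37). Its locus overlaps Elovl1 on the opposite strand, with the same doubt. Both were low in RvD1 replicate 1, and Cdc20 was highest in RvD1 replicate 3. Espl1 (separase), the protease that opens cohesin, had the highest log2 fold change of the members (0.17, standard error 0.19, unadjusted p = 0.382). It was at 16.2, 18.7, and 27.5 TPM with RvD1 and 27, 13.7, and 14.1 TPM with vehicle, so that 1 vehicle library came close to the highest RvD1 library in TPM. Pttg1 (securin), its inhibitor, stood apart in pattern, at 57.6, 52.9, and 56.2 TPM with RvD1 and 58.6, 62.3, and 56.0 TPM with vehicle, with its lowest level in RvD1 replicate 2.

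Genes of the midzone and cytokinesis (6) were lowest in CPM in RvD1 replicate 1 without exception. Prc1, which bundles the midzone microtubules, was at 186.8, 225.5, and 255.0 TPM with RvD1 and 242.2, 213.2, and 207.4 TPM with vehicle (log2 fold change −0.07, standard error 0.13). Racgap1, a protein of the spindle midzone needed for cytokinesis, was at 105.4, 124.7, and 137.9 TPM with RvD1 and 134.3, 125.4, and 133.3 TPM with vehicle (−0.18, standard error 0.12, unadjusted p = 0.156). The groups of both genes overlapped, and the highest CPM of Racgap1 was in vehicle replicate 3. Kif23, the motor that forms centralspindlin with Racgap1, was at 0.01 (standard error 0.14) and the furrow proteins Ect2 and Anln at −0.13 and −0.05 (standard errors 0.16 and 0.13). Kif20a, a motor of the midzone, was at −0.15 (standard error 0.16).

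Top2a, which untangles chromosomes, and Mki67, which coats them and encodes the common proliferation marker Ki-67, close the list. Top2a was at 131.4, 143.9, and 163.9 TPM with RvD1 and 151.0, 149.7, and 139.8 TPM with vehicle (log2 fold change −0.08, standard error 0.12). Mki67 was at 22.2, 21.6, and 22.9 TPM with RvD1 and 24.8, 21, and 18.8 TPM with vehicle (−0.02, standard error 0.10), the smallest spread over the 6 libraries of any member (SD 0.10 on the log2 scale). Top2a followed the order of RvD1 libraries seen for most members. Mki67 did not, since its CPM in RvD1 replicate 1 was 96% of the vehicle mean, where the median member was at 76.1% and Aurka at 58.6%.

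Other genes of mitosis were read from a list of 74, all of which could be tested. Of these, 0 had an adjusted p under 0.05 in edgeR, 3 had an unadjusted p under 0.05 and were lower with RvD1 (background 1.64%), and 0 were higher. Their median log2 fold change was −0.06, with 15 above and 59 below 0. The sign of this median was not stable, at 0.05 without RvD1 replicate 1, 0.0024 with the procedure of the study, and 0.01 with TPM, and it was −0.17 without RvD1 replicate 3. The 3 genes were the centromere proteins Cenpl (log2 fold change −0.30, standard error 0.11, unadjusted p = 0.0299), Cenpp (−0.31, standard error 0.12, unadjusted p = 0.0317), and Cenph (−0.35, standard error 0.14, unadjusted p = 0.0338), each with an adjusted p of 0.971. Cenph was at 22.3, 27.4, and 27.4 TPM with RvD1 and 30.1, 31.6, and 31.6 TPM with vehicle, groups that did not overlap. In CPM, the groups did not overlap for 4 of the 74 genes lower with RvD1 (background 4.83%) and for 0 higher (background 4.8%). In the other direction, the smallest unadjusted p values were those of Kif20b (0.24, standard error 0.13), Hjurp, the chaperone of Cenpa (0.12, standard error 0.10), and Lin54, the DREAM subunit that contacts the CHR element (0.17, standard error 0.16). As among the members, RvD1 replicate 1 held the lowest level for 63 of the 74 genes (85.1%, beside 29.5% of all genes). RvD1 replicate 3 held the highest for 33 (44.6%, beside 18.9% of all genes).

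Genes of DNA replication and S phase (49) shared the low level in RvD1 replicate 1 and differed in RvD1 replicate 3. RvD1 replicate 1 held the lowest level for 48 of the 49 (98%, beside 29.5% of all genes). RvD1 replicate 3 held the highest for 13 (26.5%, beside 18.9% of all genes), compared with 26 of the 44 mitosis genes (59.1%). Vehicle replicate 3 held the highest S-phase level for 22 (44.9%, beside 17.9% of all genes). The median relative to the vehicle mean in RvD1 replicates 1, 2, and 3 was −0.47, 0.03, and 0.03 for the S-phase genes and −0.39, −0.04, and 0.12 for the mitosis genes. The median log2 fold change of the S-phase genes was −0.12, with 38 of 49 below 0 and 0 at an adjusted p under 0.05. It was 0.03 without RvD1 replicate 1, −0.19 without RvD1 replicate 3, and −0.04 with the procedure of the study. The difference between the lists was not tested.

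RvD1 replicate 1 was also extreme for some marker lists, and over all genes tested 30.6% had their highest level and 29.5% their lowest in it. Mean log2 CPM of 12 stem cell markers was 7.31, 6.73, and 6.66 with RvD1 and 7.14, 6.88, and 6.71 with vehicle, with 8 of the 12 highest in RvD1 replicate 1. Among them, Pax7 was at 8.5 TPM in that library and 4.03 to 6.63 TPM elsewhere, while Myod1 was lowest there (238.9 TPM). The 10 fibro-adipogenic markers had a mean of 5.86, 4.67, and 5.14 log2 CPM with RvD1 and 5.03, 5.01, and 5.29 with vehicle, and of the 9 that could be tested 7 were highest in RvD1 replicate 1. Dcn, for example, was at 450.3 TPM there and 182.2 to 284.0 TPM elsewhere. Ly6a (25.4 TPM there, 17.2 to 39.7 TPM elsewhere) and Pdgfra (3.48 TPM there, 1.57 to 3.55 TPM elsewhere) were not highest in that library. The 13 differentiation genes did not follow RvD1 replicate 1, and were highest in RvD1 replicate 3 (6.66) and lowest in RvD1 replicate 2 (5.75), with 6.32 in RvD1 replicate 1 and 6.04, 6.36, and 6.20 with vehicle. The part of cell composition in the low level of mitosis genes in RvD1 replicate 1 was not tested.

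**Figure D5:**
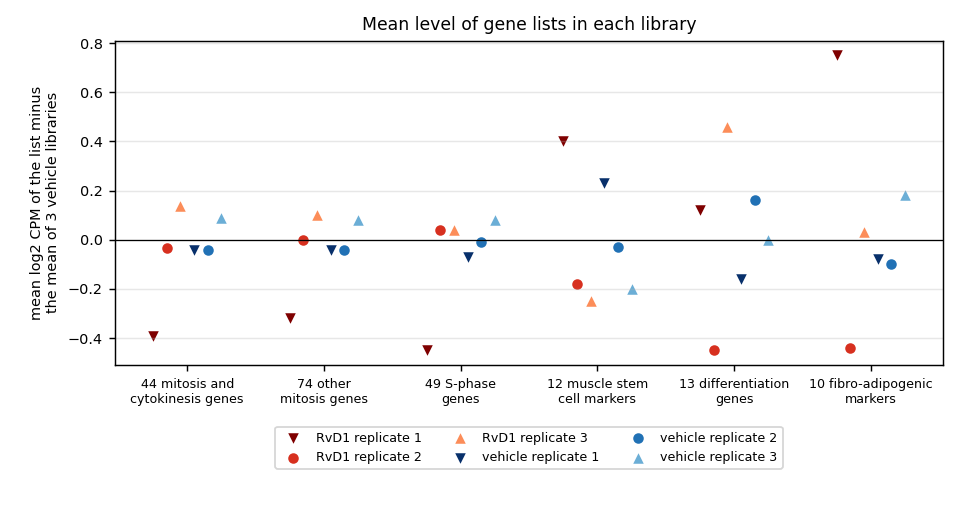
Mean log2 CPM of 6 gene lists in each library minus the mean of the 3 vehicle libraries (y axis), with the lists along the x axis and 1 point for each of 6 libraries. RvD1 replicate 1 is the lowest point for the mitosis and S-phase lists and the highest for the stem cell and fibro-adipogenic markers.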

How the data were processed

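Sorted MuSCs of 3 RvD1-treated and 3 vehicle-treated mice were measured by RNA-Seq. The authors aligned 76-base single-ended reads to mm10 with STAR 2.5.0a and quantified genes with RSEM, and the annotation release and strand setting are not given in the sources used here. The deposited expected counts are not scaled for depth, the deposited TPM correct for length and sum to between 996112 and 996309 in each library, and the deposited FPKM correct for length and the number of fragments. Libraries totaled 16148026 to 28149176 counts. From each file 1 stray header line was removed. Reads carry no molecular identifiers, so floors cover counting error only.

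Expected counts were rounded and tested with edgeR 4.0.16 in R 4.3.3 (TMM, filterByExpr, quasi-likelihood test, two-sided, Benjamini-Hochberg over 14494 genes). Log2 CPM used a prior count of 2. Standard errors came from the fold change and the F statistic, and intervals from the fit's degrees of freedom. In simulated counts for this comparison edgeR recovered 179 of 200 genes changed 4-fold, with 11 false calls among 14234 genes. Changes of the members were far smaller (log2 fold change −0.23 to 0.17), and recovery at that size was not simulated. Alternatives were DESeq2 1.42.0, limma 3.58.1 with and without sva 3.50.0, other factors and filters, a replicate block, TPM and FPKM with limma, and each replicate left out. Limma with sva is called the study's procedure, although its filter and the 1 surrogate variable removed were set here.

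Named members were the 2 with the highest mean TPM in each of 8 roles, the 3 with the smallest p in each direction, the 3 with the lowest mean TPM, and those with the largest and smallest SD. Of the other mitosis genes, the 3 with the smallest p in each direction were named. Others are named for their roles or were chosen after their values were seen. The members and lists were chosen with earlier results of these data known. Promoter sequences were taken from RefSeq (GRCm38.p6), and for 34 of 39 windows the last 30 bases were found on the sense strand of a GENCODE M21 transcript of the gene. Of the 44 members, GENCODE M21 places 8 over another gene on the same strand and 19 on the opposite strand. As for Ube2c and Cdc20, reads of these opposite-strand pairs may not be separable where strand was not used. A p sets the difference between the groups against the variation among libraries within them. Each library came from a different mouse, so differences between mice cannot be separated there from those of sorting and measurement.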

Additional observations from a re-analysis of the deposited data

How the results depend on the processing

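No member had an adjusted p under 0.05 under any alternative (smallest 0.337). Of 475 log2 fold changes of the 25 named members under 19 alternatives, 427 kept their direction, and 9 members kept it under each. With 3 mice in each group, changes smaller than the intervals were not detectable, and the causes of the changes below were not tested.

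Members at an unadjusted p under 0.05 numbered 0 with library totals, no filter on low counts, the replicate block, log2(TPM + 1), log2(TPM + 0.1), and log2(FPKM + 1), and 0 to 3 when 1 replicate was left out. Genes of any kind past an adjusted p of 0.05 numbered 12 with no filter and 0 to 1 with 1 replicate left out. Members higher with RvD1 numbered 5 with limma-voom without surrogate variables, 15 with the study's procedure, 16 with TPM at either pseudocount, and 0 to 31 with 1 replicate left out (0 without RvD1 replicate 3, 31 without RvD1 replicate 1). Groups of members that did not overlap numbered 7 without RvD1 replicate 1, 3 lower with RvD1 (background 9.58%) and 4 higher (background 10.4%). Without RvD1 replicate 3 such groups numbered 14, with 14 lower (background 10.3%) and 0 higher (background 10.5%). Both counts were chosen after seeing the data.

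The replicate numbers name different mice. No source pairs these mice, so the samples were not treated as pairs, and the replicate block was run as an alternative. Deviations of same-numbered libraries correlated at 0.31, −0.00071, and 0.126, beside a mean of −0.0734 for different numbers. Of 6 libraries, 3 were closest to their own number. Whether same-numbered libraries share a source of variation was not tested. With the replicate block 5 members were higher with RvD1, Cdc20 was at −0.02, and Ttk at −0.0025.

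Directions otherwise turned for values near 0. Cdc20 was at −0.0028 with DESeq2, −0.0030 with its size factors, −0.0019 with no filter, −0.03 with limma-voom, and −0.04 with FPKM. Bub1b was at 0.0047 with library totals and 0.02 with the study's procedure and both TPM settings. Mki67 was at 0.01 with library totals, the study's procedure, and FPKM, 0.05 with log2(TPM + 1), and 0.06 with log2(TPM + 0.1). Tpx2 was at 0.01 with the study's procedure and FPKM and 0.06 with TPM. Prc1 was at 0.0013 with TPM, Cenpe at 0.0019 and 0.0016 with a pseudocount of 1 and 0.1, and Ttk at −0.02 with limma-voom.

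With 1 replicate left out, ranges were −0.30 to 0.06 for Ccnb1, −0.26 to 0.06 for Cdca8, −0.22 to 0.02 for Mad2l1, −0.20 to 0.12 for Bub1b, −0.30 to 0.00044 for Tacc3, −0.17 to 0.08 for Tpx2, −0.19 to 0.07 for Prc1, −0.18 to 0.03 for Top2a, −0.14 to 0.01 for Cenpe, −0.39 to 0.13 for Aurka, −0.20 to 0.15 for Cdc20, −0.02 to 0.36 for Espl1, −0.08 to 0.24 for Incenp, −0.01 to 0.14 for Cdc25c, and −0.15 to 0.12 for Ttk. The lowest of each came without RvD1 replicate 3 and the highest without RvD1 replicate 1. Without a change of direction, ranges were −0.33 to −0.09 for Nuf2, −0.35 to −0.05 for Cdk1, −0.25 to −0.05 for Birc5, −0.30 to −0.0019 for Ube2c, −0.28 to −0.06 for Racgap1, −0.20 to −0.03 for Cenpa, −0.27 to −0.03 for Spc25, −0.23 to −0.08 for Cdca3, and −0.22 to −0.16 for Ccnb2. Mki67 ranged from −0.09 without vehicle replicate 3 to 0.06 without vehicle replicate 1.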
